A study of Mus musculus with 6 samples.

Results

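SNARE proteins are the membrane-anchored proteins that drive the fusion of a transport vesicle with its target membrane. A Qa-SNARE (a syntaxin), a Qb- and a Qc-SNARE on one membrane zip together with an R-SNARE (a VAMP or a longin protein such as Sec22b or Ykt6) on the other, while the SNAP proteins carry both the Qb and the Qc helix in a single chain. Each compartment uses its own set, and Sec22b, an R-SNARE of traffic between the endoplasmic reticulum (ER) and the Golgi, together with syntaxin 4 (Stx4a in the files), a Qa-SNARE of the plasma membrane, has been tied to the delivery of ER proteins to phagosomes for cross-presentation, the display of captured antigen on MHC class I.

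The genes described here are the rows of the count table named as numbered syntaxins (Stx) or VAMPs (Vamp), together with Snap23, Snap25, Snap29, Snap47, Vti1a, Vti1b, Bet1, Bet1l, Gosr1, Gosr2, Ykt6, Use1, Bnip1, Sec22a, Sec22b and Sec22c. They number 38 of the 23420 genes in the table. Of these, 34 passed edgeR's filter on low counts and were tested. Of the other members, Snap25, the SNAP protein of neurons, had 0 reads in every library. Vamp7, a longin R-SNARE of late endosomes and lysosomes, was also listed at 0, but its symbol had no entry in the gene annotation used here, so whether the gene was expressed cannot be read from that row. Stx19, a syntaxin, had 0 to 2 reads.

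RNA was measured in bone marrow-derived mesenchymal stromal cells (MSCs), the adherent fibroblast-like cells grown from the femurs of female C57BL/6 mice aged 6 to 8 weeks. The group labelled Ctl MSC (3 libraries) carried the empty AP2 retroviral construct with eGFP, and the group labelled MSC-TPr (3 libraries) carried the same construct with the murine thymoproteasome (TPr) subunits β1i (Psmb9), β2i (Psmb10) and β5t (Psmb11), the proteasome form of the cortical thymic epithelium. Both groups were transduced in culture. The sources do not state whether libraries of a group came from separate cultures or animals, so p-values measure the spread between these libraries, which may be technical.

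The libraries held 16158756 to 22158887 reads on genes. By these totals, 3 reads corresponded to 0.135 to 0.186 CPM (reads scaled to a common library size), a limit that covers counting error only. All other values in CPM use library sizes further scaled by edgeR's TMM method, so the limit is approximate for them. Over all 6 libraries, the transduced genes did not separate the groups: Psmb11 had 2 to 4 reads in Ctl MSC and 1 to 6 in MSC-TPr, and Psmb9 and Psmb10 were highest in Ctl MSC 1 (3.38 and 27.8 CPM). Without the libraries numbered 1, Psmb10 was called higher in MSC-TPr (log2 fold change 0.92, edgeR adjusted p = 0.0055), where 40.0% of all genes were called. Psmb9 was not called in that fit (0.59, edgeR adjusted p = 0.164), and Psmb11 was not tested. The paper checked transduction by eGFP and by immunoblotting of the subunits. Ctl MSC 1 and MSC-TPr 1 stood apart from their groups on the first principal component (60.6% of the variance), where Ctl MSC 1 lay beside MSC-TPr 2 and 3. The second component separated the labels, at −42.0, −18.3 and −17.5 for Ctl MSC 1, 2 and 3. MSC-TPr 1, 2 and 3 lay at 41.0, 22.8 and 14.0 there. Across 15 genes of cell division, mean log2 CPM reached 6.67, 3.48 and 3.45 across Ctl MSC 1, 2 and 3 against 3.57, 6.61 and 6.69 across MSC-TPr 1, 2 and 3, the order in which library values are listed throughout. Directions are therefore directions between library labels, and results are given over all 6 libraries and without the libraries numbered 1. Of 7 MSC surface markers, Thy1 (CD90) had 0 to 1 read in every library, while the others were detected in all libraries. Nt5e (CD73) separated the labels, at 11.4, 20.2 and 17.4 CPM across Ctl MSC against 2.66, 4.20 and 5.24 across MSC-TPr (log2 fold change −2.02, SE 0.3501, edgeR adjusted p = 0.079), and was called lower without the libraries numbered 1 (−1.99, edgeR adjusted p = 0.00081). Cd44 went the other way in that fit, called higher at 1.88 (edgeR adjusted p = 0.00021). It measured 536, 144 and 142 CPM across Ctl MSC against 205, 519 and 532 across MSC-TPr, with overlapping groups. Eng, Ly6a, Pdgfra and Pdgfrb also had overlapping groups and were called in neither fit. The part of these markers in the SNARE results was not tested. The 9 haematopoietic and endothelial markers in the table summed to 1.51 to 3.32 CPM, Cd3e was at 0 in all libraries, and Ptprc and Itgam had at most 2 reads. Kdr had 9 to 54 reads. Csf1r had 12, 1 and 1 reads across Ctl MSC against 0, 13 and 18 across MSC-TPr. It was called higher without the libraries numbered 1 (log2 fold change 3.74, edgeR adjusted p = 0.0040). In bulk RNA, fewer cells of a kind and less RNA per cell cannot be told apart.

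Each SNARE class, from the Qa-SNAREs to the VAMPs, had members at measurable levels in all 6 libraries. Levels of different genes were compared as CPM per kilobase (kb) of annotated exon, as mean ± SD of 3 libraries. The highest were Ykt6 and Gosr2. Ykt6, a lipid-anchored R-SNARE of the Golgi, measured 50.5 ± 3.71 in Ctl MSC and 54.9 ± 7.78 in MSC-TPr. Gosr2 (membrin), the Qb-SNARE of ER-to-Golgi transport, measured 55.8 ± 5.92 and 45.8 ± 2.27. The order of Ykt6 and Gosr2 was different in the 2 groups. By the mean of all 6 libraries, the Qb-SNARE Vti1b, of late endosomes, followed with 25.6 ± 2.69 and 37.3 ± 4.63, ahead of Snap47 (23.8 ± 1.12 and 31.8 ± 3.83), an atypical SNAP protein, and of Stx12 (29.2 ± 1.08 and 24.7 ± 0.687), the Qa-SNARE of recycling endosomes also known as syntaxin 13. Stx12 was the highest of these in Ctl MSC and the lowest in MSC-TPr, and the ranges of Vti1b and Snap47 overlapped in both groups.

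At the cell surface, Stx4a led the Qa-SNAREs with 13.8 ± 4.33 CPM per kb in Ctl MSC and 13.0 ± 3.55 in MSC-TPr, followed by Stx2 (10.5 ± 0.530 and 9.06 ± 1.03), and the ranges of mean ± SD of these syntaxins met in both groups. Stx1a, the syntaxin of neurons and endocrine cells, reached 1.75 ± 0.0371 and 2.23 ± 0.716. Among the VAMPs, Vamp3 (cellubrevin), an R-SNARE of recycling endosomes, had 28.8 ± 7.97 and 23.1 ± 2.09, Vamp8 of late endosomes 21.2 ± 4.71 and 24.3 ± 1.91, Vamp2 7.43 ± 0.825 and 6.25 ± 1.19, and Vamp1, mostly neuronal, 0.265 ± 0.128 and 0.178 ± 0.116. The level of Vamp3 was above that of Vamp2 in all 6 libraries. Sec22b measured 15.8 ± 1.55 and 14.0 ± 1.85 CPM per kb, above its relatives Sec22a (2.76 ± 0.215 and 2.24 ± 0.320) and Sec22c (3.34 ± 0.323 and 2.67 ± 0.589). The exon length is the union of all annotated transcripts, and a long union, such as the 10167 bases of Vamp1, lowers the value.

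**Figure D1:**
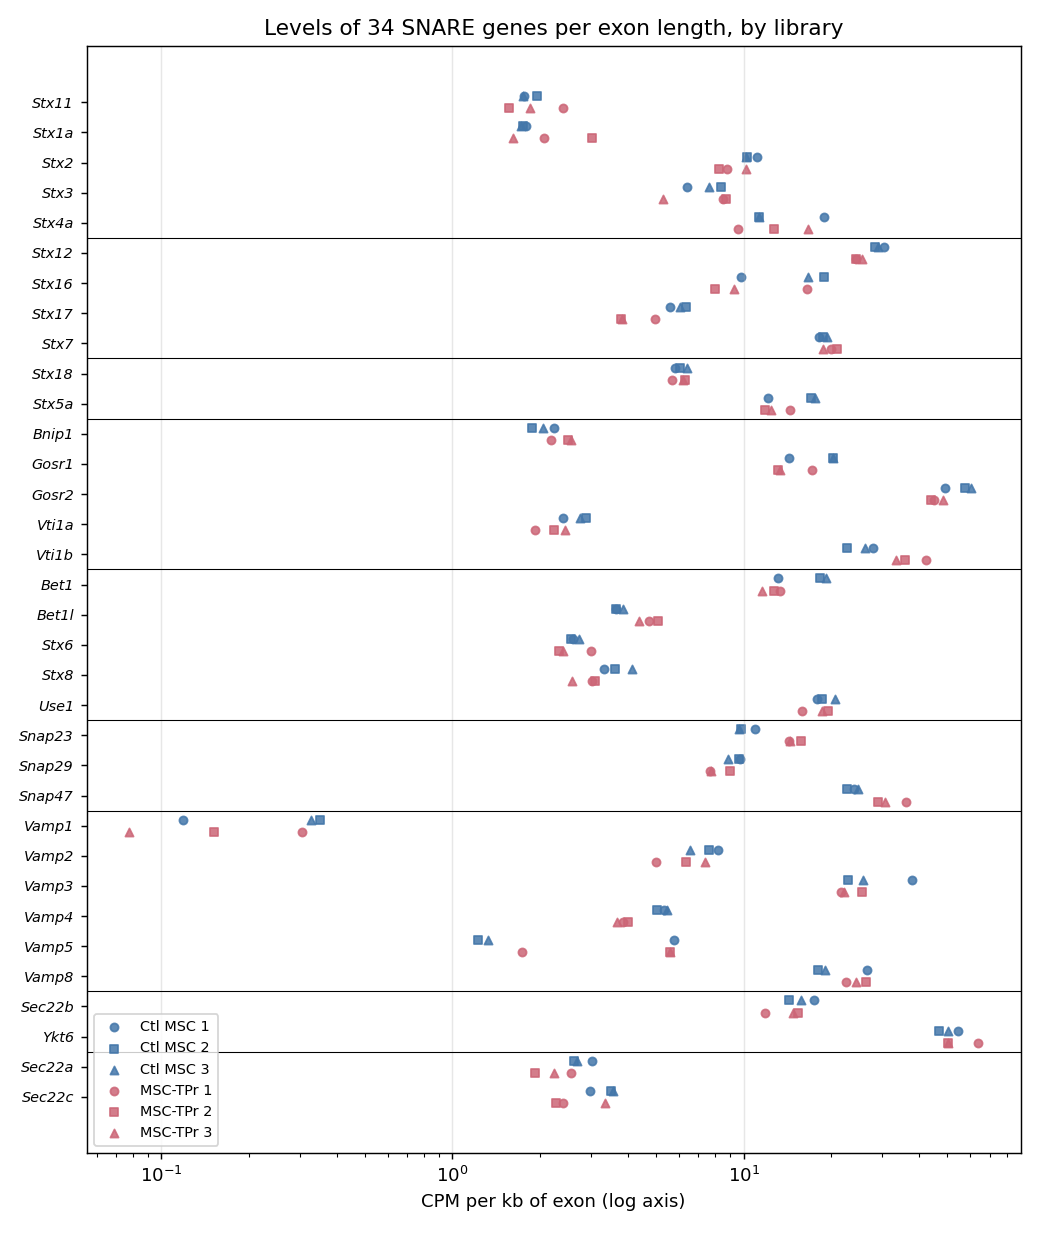
CPM per kb of exon (log axis) of the 34 SNARE genes tested, with one point per library (blue Ctl MSC, red MSC-TPr) and lines between roles. From top to bottom the blocks hold Qa-SNAREs of the plasma membrane, of endosomes, trans-Golgi and autophagosomes, and of ER and Golgi, then Qb, Qc, SNAP proteins, VAMPs, Sec22b with Ykt6, and Sec22a with Sec22c. Ykt6 and Gosr2 lie furthest right and Vamp1 furthest left.

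The highest library exceeded the lowest by a median factor of 1.54 over the 34 members tested, against 1.93 over all 11974 genes tested, and this factor was under 1.5 in 15 members (44.1%) and in 21.7% of all genes. Stx18, the Qa-SNARE of retrograde transport into the ER, was the steadiest at 26.8, 27.7 and 29.4 CPM across Ctl MSC 1, 2 and 3 against 26.1, 28.9 and 28.4 across MSC-TPr 1, 2 and 3, a factor of 1.13. Its exons overlap Nsg1 on the opposite strand, which ranged from 1.61 to 22.8 CPM. Stx7, the Qa-SNARE of late endosomes, came next in steadiness. Vamp5, a VAMP best known from muscle, spanned the widest range, a factor of 4.71, followed by Vamp1 with 4.54. Levels differ between genes, and higher counts give a smaller counting error, so these factors describe the libraries only.

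**Figure D2:**
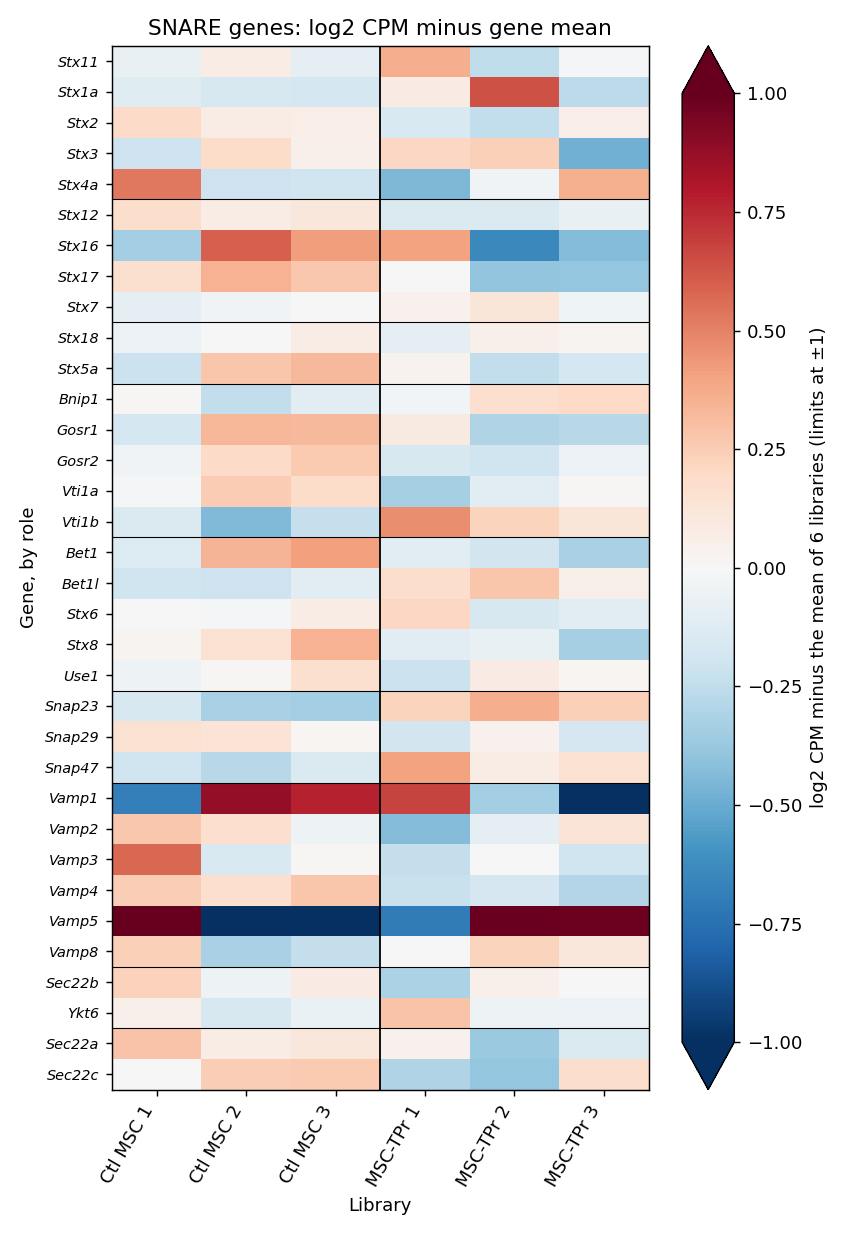
Each row is a SNARE gene and each column a library, and colour gives log2 CPM minus the gene's mean over the 6 libraries, with colours limited at ±1. Vamp5 is high in Ctl MSC 1, MSC-TPr 2 and MSC-TPr 3 and low in the other libraries, Stx16 and Vamp1 show the opposite, and Snap23, Snap47 and Vti1b are higher in every library labelled MSC-TPr.

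The comparison of MSC-TPr with Ctl MSC asks what transduction with the TPr subunits went along with, here for the fusion machinery. A call needed an edgeR quasi-likelihood p under 0.05 after Benjamini-Hochberg adjustment across the genes tested, and 0.5 or more in log2 fold change. Over all 6 libraries, 0 of the 34 members were called, while 0.426% of all genes were (0.0251% higher and 0.401% lower). At an unadjusted p under 0.05, 3 members were higher, where 6.81% of all genes were, and 2 were lower, where 8.23% were (15.0% in either direction). DESeq2 called 1 member higher, Snap23, and 0 lower, where it called 5.28% of all genes with an adjusted p (1.89% higher and 3.39% lower). The log2 fold change was above 0 in 12 members and below 0 in 22, with a median of −0.19 beside 0.01 over all genes tested. In 11 members (32.4%) the groups did not overlap, 4 higher and 7 lower in MSC-TPr, where 22.6% of all genes did not overlap (10.6% higher and 12.1% lower). Without Ctl MSC 1, 21 members (61.8%) did not overlap, beside 47.5% of all genes, and the median was −0.11. Without MSC-TPr 3, 17 of the 34 members did not overlap, beside 31.2% of all genes. Fewer libraries in a group leave fewer chances to overlap for any gene.

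Without the libraries numbered 1, 9 of 34 members (26.5%) were called, 3 higher and 6 lower, against 40.0% of all genes (20.6% higher and 19.4% lower). Snap23, Vti1b and Vamp5 rose, and Bet1, Gosr1, Stx16, Stx17, Stx5a and Vamp1 fell, in this fit. The pair of libraries left out differed in the same direction as the call in 3 of these 9 members, Snap23, Stx17 and Vti1b (33.3%), as it did in 29.8% of all genes called. Those libraries stand alone in each group, so that comparison has no replicate check.

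**Figure D3:**
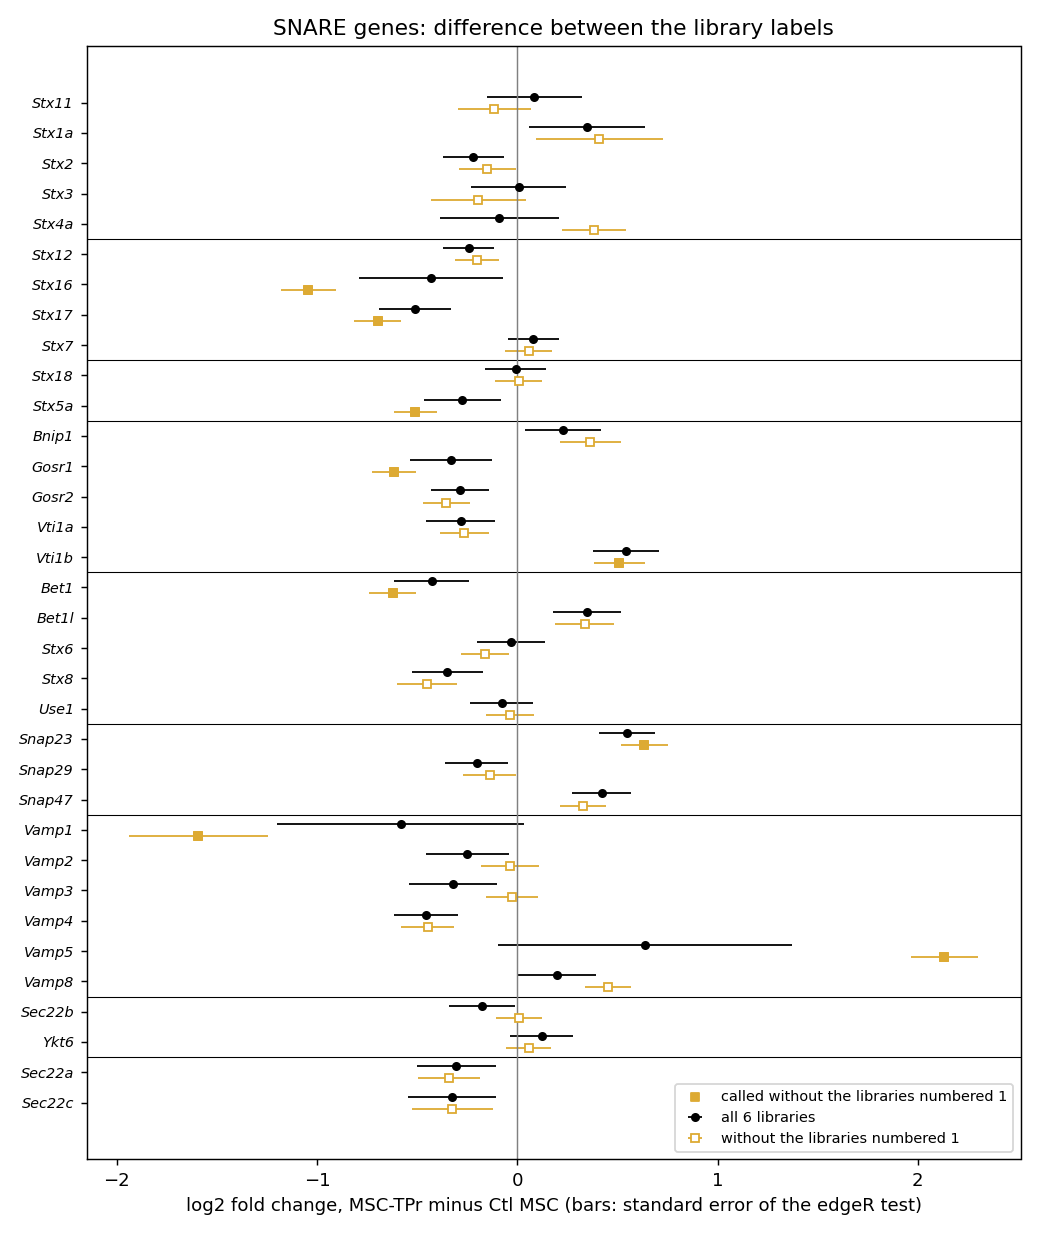
Log2 fold change (MSC-TPr minus Ctl MSC) of the 34 SNARE genes over all 6 libraries (black) and without the libraries numbered 1 (yellow, filled where called), with bars for the standard error of the edgeR test. Over all 6 libraries no gene is called, and Vamp5, Stx16, Vamp1 and Stx4a move most between the fits.

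Separation by label in all 6 libraries largely sets the direction without the libraries numbered 1 as well, so that direction is no separate check. Promoters are shown for separated members with the largest log2 fold changes, Snap23 and Vti1b among the higher and Stx17 and Vamp4 among the lower. Each runs 5′ to 3′ on the strand of the gene, from 250 bases before to 50 bases after the start (RefSeq, GRCm38.p6, the outermost start where a gene has several), and capitals mark matches to the motifs named after them.
Snap23 promoter (chr2:120567421-120567720, plus strand): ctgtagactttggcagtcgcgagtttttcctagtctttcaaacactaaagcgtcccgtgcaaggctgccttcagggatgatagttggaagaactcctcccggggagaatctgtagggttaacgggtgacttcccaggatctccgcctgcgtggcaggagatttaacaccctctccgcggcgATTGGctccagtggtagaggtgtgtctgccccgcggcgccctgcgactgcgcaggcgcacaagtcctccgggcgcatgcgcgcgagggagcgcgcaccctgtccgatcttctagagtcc
Vti1b promoter (chr12:79172409-79172708, minus strand): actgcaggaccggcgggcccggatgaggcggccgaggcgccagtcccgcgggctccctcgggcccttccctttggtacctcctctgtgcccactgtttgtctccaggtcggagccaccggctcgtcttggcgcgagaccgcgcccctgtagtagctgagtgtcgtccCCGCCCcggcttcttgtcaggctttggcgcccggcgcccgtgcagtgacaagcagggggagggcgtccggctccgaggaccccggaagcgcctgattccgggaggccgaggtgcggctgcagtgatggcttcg
Stx17 promoter (chr4:48124669-48124968, plus strand): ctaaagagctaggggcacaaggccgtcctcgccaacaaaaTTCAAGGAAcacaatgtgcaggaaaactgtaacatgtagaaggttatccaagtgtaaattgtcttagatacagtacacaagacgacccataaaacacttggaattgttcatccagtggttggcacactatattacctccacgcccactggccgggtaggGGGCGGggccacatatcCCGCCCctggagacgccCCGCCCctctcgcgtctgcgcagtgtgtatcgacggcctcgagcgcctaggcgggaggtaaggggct
Vamp4 promoter (chr1:162570265-162570564, plus strand): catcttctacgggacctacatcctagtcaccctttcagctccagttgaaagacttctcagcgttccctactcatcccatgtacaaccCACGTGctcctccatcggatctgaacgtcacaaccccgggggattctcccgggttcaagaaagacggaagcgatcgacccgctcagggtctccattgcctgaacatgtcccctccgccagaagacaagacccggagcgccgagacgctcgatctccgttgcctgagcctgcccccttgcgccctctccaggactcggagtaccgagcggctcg
The motifs searched on both strands were the GC box GGGCGG, the CCAAT box CCAAT, the E-box CACGTG, the TATA box TATAAA, the cAMP response element TGACGTCA, the STAT-binding GAS motif TTCNNNGAA and the core of the interferon-stimulated response element. Matches may overlap each other. The Snap23 promoter held 1 CCAAT box (read on the other strand), that of Vti1b 1 GC box, that of Stx17 3 GC boxes and 1 GAS motif, and that of Vamp4 1 E-box. A promoter was found for 33 of the 38 members. Of these, 22 (66.7%) held a GC box, against 35.9% of all 27025 promoters of the same length, and 13 (39.4%) held a CCAAT box, against 38.0%. An E-box stood in 4 (12.1%, against 7.24%), a GAS motif in 4 (12.1%, against 8.42%), a TATA box in 2 (6.06%, against 14.2%), and the cAMP response element and the interferon element in 1 each (3.03%, against 1.85% and 3.49%). All promoters include those of genes not expressed here, and a match describes letters, not binding.

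Snap23 is the SNAP protein that pairs with syntaxins at the surface of non-neuronal cells. It measured 47.0, 42.0 and 41.5 CPM across Ctl MSC 1, 2 and 3 against 61.3, 67.7 and 61.9 across MSC-TPr 1, 2 and 3. All MSC-TPr libraries lay above all Ctl MSC libraries, and the libraries numbered 1 lay close to their groups. The log2 fold change was 0.55 (SE 0.138, edgeR adjusted p = 0.174) over all 6 libraries and 0.63 (SE 0.116, edgeR adjusted p = 0.0071) without the libraries numbered 1. DESeq2 gave 0.56 with an adjusted p of 0.019 over all 6. Its partners at the surface did not share this separation. Stx4a had 44.5, 26.8 and 26.8 CPM across Ctl MSC against 22.6, 30.2 and 39.4 across MSC-TPr. Ctl MSC 1 and MSC-TPr 3 were the highest libraries of Stx4a, and the groups overlapped. The log2 fold change of Stx4a was −0.09 over all 6 (SE 0.299, edgeR adjusted p = 0.914) and 0.38 without the libraries numbered 1 (SE 0.159, edgeR adjusted p = 0.096), so its sign depended on the libraries used. Stx2, which also acts at the surface, was lower in MSC-TPr without overlap, but by a hair, since its lowest Ctl MSC library and its highest MSC-TPr library both measured 46.8 CPM (log2 fold change −0.22, SE 0.151, edgeR adjusted p = 0.543).

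Snap47 measured 63.4, 59.9 and 65.7 CPM across Ctl MSC against 95.9, 76.5 and 80.9 across MSC-TPr. Every MSC-TPr library was above every Ctl MSC library, and the log2 fold change over all 6 came to 0.42 (SE 0.148, edgeR adjusted p = 0.265) and 0.33 without the libraries numbered 1 (SE 0.116, edgeR adjusted p = 0.061). Its exons overlap Jmjd4 on the opposite strand, and the strand setting of the counting is not stated, so the reads cannot be told apart with certainty. Jmjd4 itself ranged from 12.7 to 21.0 CPM. Snap29, the SNAP protein of autophagosome fusion and the other member of its class tested, measured 30.4 to 33.4 CPM in Ctl MSC and 26.5 to 31.0 CPM in MSC-TPr, and its exons overlap Pi4ka on the opposite strand.

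Late endosomes fuse through Stx7, Vti1b, Stx8 and Vamp8, a Qa-, Qb-, Qc- and R-SNARE. Vti1b measured 45.0, 36.5 and 42.3 CPM across Ctl MSC against 68.4, 58.0 and 54.0 across MSC-TPr. It was higher in every MSC-TPr library, and the log2 fold change over all 6 came to 0.54 (SE 0.165, edgeR adjusted p = 0.216) and 0.51 without the libraries numbered 1 (SE 0.129, edgeR adjusted p = 0.022). Arg2, whose exons overlap Vti1b on the opposite strand, measured at most 0.278 CPM. Stx8 went the other way, with 23.6, 25.8 and 29.5 CPM across Ctl MSC against 21.5, 22.0 and 18.4 across MSC-TPr. Every MSC-TPr library of Stx8 lay below every Ctl MSC library (log2 fold change −0.35, SE 0.178, edgeR adjusted p = 0.415). Stx7 differed by 0.08 (SE 0.129) and Vamp8 by 0.20 (SE 0.195) on the log2 scale over all 6 libraries, with overlapping groups. Without the libraries numbered 1, Vamp8 differed by 0.45 (SE 0.1165, edgeR adjusted p = 0.023), under the fold threshold of a call. In that fit Stx7 differed by 0.06 (SE 0.116) and Stx8 by −0.45 (SE 0.151, edgeR adjusted p = 0.052). The genes of this one complex thus did not differ in a common direction between the labels.

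Stx17, the syntaxin that closed autophagosomes acquire before they fuse with lysosomes, had the most negative log2 fold change of the members without overlap. It measured 33.1, 37.7 and 35.8 CPM across Ctl MSC against 29.5, 22.6 and 22.7 across MSC-TPr. MSC-TPr 1 was the closest to the Ctl MSC libraries but still below them. The log2 fold change was −0.51 over all 6 libraries (SE 0.179, edgeR adjusted p = 0.263) and −0.70 without the libraries numbered 1 (SE 0.117, edgeR adjusted p = 0.0054). Of its partners on the lysosome side, Vamp8 had 61.5, 41.5 and 44.1 CPM across Ctl MSC against 51.8, 60.6 and 56.3 across MSC-TPr, highest in Ctl MSC 1 and MSC-TPr 2.

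The trans-Golgi network receives endosomal vesicles through Stx16, Vti1a, Stx6 and Vamp4. Vamp4, its R-SNARE, measured 24.3, 23.1 and 24.9 CPM across Ctl MSC against 17.6, 18.3 and 16.8 across MSC-TPr. The 2 groups were each tight and lay apart, and the log2 fold change came to −0.46 (SE 0.158, edgeR adjusted p = 0.263) over all 6 libraries and −0.45 (SE 0.132, edgeR adjusted p = 0.036) without the libraries numbered 1, under the fold threshold of a call. Stx16, the Qa-SNARE of this step, measured 39.0, 74.9 and 65.9 CPM across Ctl MSC against 65.4, 31.5 and 36.6 across MSC-TPr. Here Ctl MSC 1 sat with MSC-TPr 2 and 3, and MSC-TPr 1 with Ctl MSC 2 and 3. The log2 fold change of Stx16 was −0.43 over all 6 (SE 0.359, edgeR adjusted p = 0.623) and −1.04 without the libraries numbered 1 (SE 0.137, edgeR adjusted p = 0.0024). The cell division genes were high in the 3 libraries where Stx16 was low, and their part in the result was not tested. Vti1a and Stx6 had overlapping groups, with log2 fold changes of −0.28 (SE 0.173) and −0.03 (SE 0.171). Stx12, of recycling endosomes, measured 96.7, 89.9 and 92.6 CPM across Ctl MSC against 77.5, 77.3 and 81.2 across MSC-TPr, lower in every MSC-TPr library but by little (log2 fold change −0.24, SE 0.126, edgeR adjusted p = 0.424).

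Transport between ER and Golgi uses Stx5a with Gosr2, Bet1 and Sec22b, and transport within the Golgi uses Stx5a with Gosr1, Bet1l and Ykt6. Sec22b, the member tied to cross-presentation, measured 69.2, 56.9 and 62.4 CPM across Ctl MSC against 47.3, 60.9 and 58.8 across MSC-TPr. Ctl MSC 1 was its highest and MSC-TPr 1 its lowest library, and the other libraries of both groups fell into 1 range. Its log2 fold change was −0.17 (SE 0.165, edgeR adjusted p = 0.668) over all 6 and 0.0077 (SE 0.115, edgeR adjusted p = 0.962) without the libraries numbered 1. No difference in Sec22b was thus detected in either fit.

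Its Qa partner Stx5a measured 70.5, 99.1 and 102 CPM across Ctl MSC against 83.6, 68.9 and 72.3 across MSC-TPr, and was lower without the libraries numbered 1 (log2 fold change −0.51, SE 0.109, edgeR adjusted p = 0.012) but not called over all 6 (−0.27, SE 0.191, edgeR adjusted p = 0.547). Gosr2 measured 160, 188 and 198 CPM across Ctl MSC against 147, 144 and 158 across MSC-TPr. Its MSC-TPr libraries were all lower, the nearest pair of the groups being Ctl MSC 1 and MSC-TPr 3 (log2 fold change −0.28, SE 0.145, edgeR adjusted p = 0.413). Bet1, the Qc-SNARE of the ER-to-Golgi complex, had 49.1, 68.2 and 71.8 CPM across Ctl MSC against 49.9, 47.6 and 43.1 across MSC-TPr, so that Ctl MSC 1 lay among the MSC-TPr libraries. Bet1 fell by 0.62 on the log2 scale without the libraries numbered 1 (SE 0.118, edgeR adjusted p = 0.0081), and the value over all 6 was −0.43 (SE 0.188, edgeR adjusted p = 0.3497). Gosr1 (GS28), the Qb-SNARE within the Golgi, showed the same arrangement with 61.4, 87.2 and 87.0 CPM against 73.9, 56.3 and 57.2 CPM. Gosr1 had log2 fold changes of −0.33 (SE 0.204, edgeR adjusted p = 0.501) and −0.62 without the libraries numbered 1 (SE 0.107, edgeR adjusted p = 0.0061).

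Bet1l (GS15), the Qc-SNARE within the Golgi and a relative of Bet1, was higher in every MSC-TPr library. It measured 14.4, 14.4 and 15.3 CPM across Ctl MSC against 18.8, 20.1 and 17.3 across MSC-TPr (log2 fold change 0.35, SE 0.169, edgeR adjusted p = 0.391). Its exons overlap Gm45785 on the same strand and Ric8a on the opposite strand, which were not analysed here. Ykt6, the R-SNARE of this complex, had 162, 140 and 150 CPM across Ctl MSC against 191, 151 and 150 across MSC-TPr, and the log2 fold change came to 0.12 (SE 0.159, edgeR adjusted p = 0.771). In retrograde transport into the ER, Stx18, Use1 and Bnip1 had overlapping groups, with log2 fold changes of −0.01 (SE 0.151), −0.08 (SE 0.156) and 0.23 (SE 0.189). Sec22a, an ER protein related to Sec22b but without the SNARE helix, was lower in every MSC-TPr library, with 15.7, 13.6 and 13.96 CPM against 13.3, 9.997 and 11.7 CPM (log2 fold change −0.30, SE 0.198, edgeR adjusted p = 0.520).

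**Figure D4:**
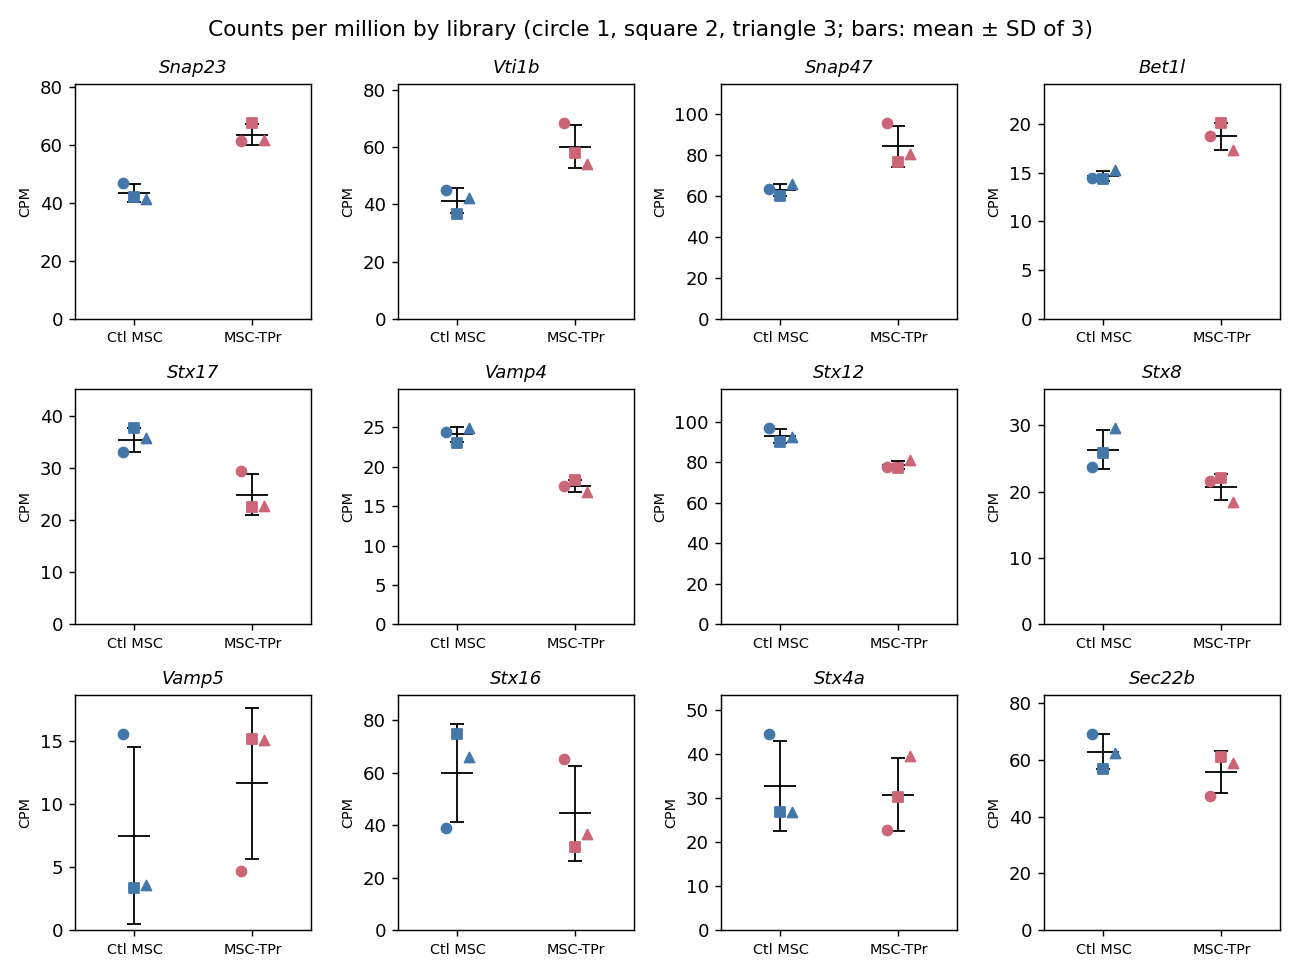
CPM of 12 SNARE genes in each library (circle, square and triangle for libraries 1, 2 and 3), with the mean and SD of each group as bars and the vertical axis starting at 0. In Snap23, Vti1b, Snap47 and Bet1l all MSC-TPr points are above all Ctl MSC points, in Stx17, Vamp4, Stx12 and Stx8 all are below, and in Vamp5 and Stx16 the circles (the libraries numbered 1) sit with the other group.

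As a ratio, Vamp5 showed the largest difference between libraries of a group among the members tested. It measured 15.6, 3.31 and 3.59 CPM across Ctl MSC against 4.71, 15.1 and 15.1 across MSC-TPr. Ctl MSC 1, MSC-TPr 2 and MSC-TPr 3 were high, which are the libraries with high cell division genes, and the part of cell division in the result was not tested. For Vamp5 the log2 fold change was 0.64 over all 6 libraries (SE 0.735, edgeR adjusted p = 0.733) and 2.13 without the libraries numbered 1 (SE 0.169, edgeR adjusted p = 0.00044). Vamp8 is the neighbour of Vamp5 on chromosome 6 of mm10 (Vamp5 from 72368794 to 72380468, Vamp8 from 72385223 to 72390703, both on the minus strand), and Vamp8 too was highest in those 3 libraries, at 56.3 to 61.5 CPM against 41.5 to 51.8 CPM in the others. Vamp1 ran opposite to Vamp5, with 20, 67 and 60 reads across Ctl MSC against 56, 26 and 17 across MSC-TPr (log2 fold change −0.58 over all 6, SE 0.618, edgeR adjusted p = 0.710, and −1.59 without the libraries numbered 1, SE 0.346, edgeR adjusted p = 0.013). Vamp3 had 109 CPM in Ctl MSC 1 and 62.4 to 74.1 CPM in the other 5 libraries, so its mean in Ctl MSC rests on that library, and the log2 estimate came to −0.32 (SE 0.221) with all 6 and −0.03 (SE 0.130) without the libraries numbered 1. The groups of Stx1a, Stx3, Stx11, Vamp2 and Sec22c overlapped, with log2 fold changes from −0.33 (Sec22c) to 0.35 (Stx1a).

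The other genes of the fusion pathway were examined from lists of SM proteins (which hold and clasp syntaxins), the NSF and SNAP disassembly factors, the HOPS, CORVET and exocyst tethers, and priming factors with calcium sensors. Of 61 genes in the table, 42 were tested and 0 were called over all 6 libraries (edgeR), while 2 were higher and 7 lower at an unadjusted p under 0.05, and DESeq2 called 4 (Stxbp2 higher, Doc2b, Exoc2 and Syt12 lower). Over all genes the shares at that p were 6.81% higher and 8.23% lower, and DESeq2 called 5.28%. The groups did not overlap in 12 (28.6%), 4 higher and 8 lower, beside 22.6% of all genes (10.6% higher and 12.1% lower). Without the libraries numbered 1, 17 of 43 (39.5%) were called, 6 higher and 11 lower, beside 40.0% of all genes. With Ctl MSC 1 alone left out, Doc2b was called, where 0.886% of all genes were.

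Stxbp2 (Munc18-2), an SM protein that works with surface syntaxins, measured 5.74, 4.91 and 5.35 CPM across Ctl MSC against 11.2, 11.3 and 9.56 across MSC-TPr. Its groups lay well apart in all 6 libraries, and the log2 fold change came to 1.0004 (SE 0.203, edgeR adjusted p = 0.114), and 1.02 without the libraries numbered 1 (edgeR adjusted p = 0.0067). Stxbp3a (Munc18-3), the SM protein of syntaxin 4, was also higher without overlap, but by 0.15 (SE 0.150, edgeR adjusted p = 0.691). The disassembly factors Nsf, Napa, Napb and Napg all had overlapping groups. Among the tethers, the exocyst subunit Exoc2 (Sec5), which ties secretory vesicles to the plasma membrane, measured 76.5, 88.9 and 84.5 CPM across Ctl MSC against 48.4, 49.9 and 59.9 across MSC-TPr (log2 fold change −0.66, SE 0.153, edgeR adjusted p = 0.144). Without the libraries numbered 1, Exoc2 was called lower at the same −0.66 (edgeR adjusted p = 0.010). Vps41 of the HOPS complex, which tethers late endosomes to lysosomes, measured 115, 148 and 141 CPM against 113, 78.6 and 68.8 CPM (log2 fold change −0.64, SE 0.226, edgeR adjusted p = 0.269), and MSC-TPr 1 lay close to Ctl MSC 1. It was called lower without the libraries numbered 1, at −0.97 (edgeR adjusted p = 0.0020). Doc2b, a calcium sensor of exocytosis, had 14, 67 and 75 reads across Ctl MSC against 3, 1 and 3 across MSC-TPr (edgeR adjusted p = 0.077), and was called lower without the libraries numbered 1 (edgeR adjusted p = 0.00049). Unc13a (Munc13-1), a priming factor, had 15, 8 and 5 reads across Ctl MSC against 19, 21 and 55 across MSC-TPr (log2 fold change 1.60, edgeR adjusted p = 0.282), and was called higher at 2.44 without the libraries numbered 1 (edgeR adjusted p = 0.012). Of the 33 priming factors and calcium sensors in the table, only 14 passed the filter on low counts.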

How the data were processed

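Polyadenylated RNA was sequenced from both ends with a stranded kit. The authors aligned the reads to mm10 and deposited raw counts per gene from Htseq-count for 6 libraries, and the submitters' processing notes name CASAVA 1.8.2, Trimmomatic 0.35 and TopHat2 2.1.0. Summary rows (13.8% to 20.8% of the listed reads) were left out. The counts went into edgeR 4.0.16 (R 4.3.3) after filterByExpr and TMM scaling, in a quasi-likelihood model holding just the group label, and p-values were adjusted by Benjamini-Hochberg. The script was tested on simulated data. Whether the counting used strand is not given in the sources used here. The standard error is the log2 fold change divided by the square root of F. DESeq2 1.42.0, the tool the authors used, was an alternative, as were RLE, other filters, a replicate block, leaving out each library, and leaving out both libraries numbered 1. Coordinates and exon lengths came from GENCODE M21 (mm10, 37 of 38 members matched by symbol). No 2 libraries of a group were copies, by a chi-square per gene, and libraries of different groups were not compared. This value was 4.76 between Ctl MSC 2 and 3 and 50.0 between MSC-TPr 2 and 3. It was 153.7 to 190.9 in the pairs with a library numbered 1. The fit without the libraries numbered 1 thus rests on a close pair in Ctl MSC and a wider pair in MSC-TPr. Its p-values measure the spread within both pairs together. The genes named are Sec22b, Stx4a, those called in either fit, those without overlap, the 3 largest log2 fold changes per direction at a mean of at least 1 CPM and the 3 highest per kb, and up to 2 genes without overlap per pathway list, while other members are given by their values. The members and lists were chosen with earlier results of these data known. Of the members that were not tested, 1 is not reported here.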

Additional observations from a re-analysis of the deposited data

How the results depend on the processing

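Leaving out both libraries numbered 1 gave the highest counts of calls over edgeR fits at the same thresholds: 9 members (26.5%, beside 40.0% of all genes) and 17 pathway genes, against 0 and 0 over all 6 libraries. In that fit 23 members (67.6%) did not overlap, beside 77.5% of all genes, and the median log2 fold change of the members was −0.13 (−0.19 over all 6). With those libraries left out, alternatives added after seeing the data gave 9 members (26.5%, beside 35.2% of all genes) and 16 pathway genes with DESeq2, and 12 (35.3%, beside 45.4%) and 21 with no fold threshold. DESeq2 over all 6 called 1 member and 4 pathway genes. Leaving out each library in turn called 0 members and 0 to 1 pathway genes, where 0.00% to 0.886% of all genes were called. In those fits 12 to 21 members did not overlap (35.3% to 61.8%, beside 25.2% to 47.5% of all genes), with medians from −0.21 to −0.11. RLE, both other filters and the absence of a fold threshold over all 6 left the counts of called members and pathway genes at 0. With RLE and with those filters, 0.277% to 0.426% of all genes were called, and the share with no fold threshold over all 6 is not given here. With no filter on low counts, 9 of 36 members (25.0%, beside 19.2% of all genes) did not overlap, 4 higher and 5 lower. That is fewer than the 11 members of the main fit. RLE and the filter of at least 10 counts left 11 (32.4%, beside 22.7% and 22.0% of all genes).

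The sign turned for Sec22b without the libraries numbered 1 (0.0077 with edgeR, 0.012 with DESeq2), for Stx4a in the same fits (0.38 and 0.39) and over the fits that each left out 1 library (−0.30 to 0.20), and for Ykt6 over the latter (−0.00040 to 0.19). Of 260 values of the 20 named members under alternatives, 234 kept direction and side of the threshold. Another 19 kept direction and passed the threshold, and 7 turned. The causes were not tested. No member was called by edgeR over all libraries, so staying on that side of the threshold asks little. Members called without the libraries numbered 1 were named for that reason. Their values in the fits without those libraries, and Snap23 with DESeq2 over all libraries, were those that passed. The tally thus reflects how members were chosen and is no measure of robustness.

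Same-numbered libraries deviated from their group means in opposite directions (correlations across genes of −0.77, −0.62 and −0.62). Deviations cancel out over the 3 libraries of a group, so these correlations are not separate checks. Whether same-numbered libraries form pairs cannot be read from them. With the replicate block, 0 members and 0 pathway genes were called, as were 0 of all 11974 genes, and the median was −0.19. The common dispersion was 0.124 over all 6 libraries and 0.0168 without the libraries numbered 1.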
